A study of Saccharomyces cerevisiae S288C with 71 samples.

Results

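Succinate dehydrogenase, respiratory complex II, is encoded in the yeast nucleus by SDH1, SDH2, SDH3 and SDH4, and the transcripts of these 4 genes were followed in every library. The members were the rows of the deposited table with those 4 gene symbols, 4 of 5803 genes, and all 4 were among the 5766 genes kept after a filter on low values. RNA had been measured in S. cerevisiae S288C grown at 30 C in a synthetic medium of yeast nitrogen base with ammonium and 2% glucose, and collected at 0 h (log phase), 12 h and 16 h, a span in which wild-type cells exhaust glucose and switch from fermentation to respiration (the diauxic shift). Among the 12 strains, one was wild type (wt), 2 were electron transport chain mutants (coq2, without the COQ2 enzyme of coenzyme Q synthesis, and cox4, without the COX4 subunit of cytochrome c oxidase), and 3 were suppressors of the starvation lethality of such mutants, namely ras2, without the small GTPase Ras2 that stimulates adenylate cyclase, rts1, without a regulatory subunit of protein phosphatase 2A, and tco89, without a subunit of the TORC1 kinase complex. The 6 double mutants were coq2 ras2, coq2 rts1, coq2 tco89, cox4 ras2, cox4 rts1 and cox4 tco89. All strains shared the S288C background and the medium, and how many clones of each deletion were grown is not given in the sources used here. Each strain and time had 2 libraries, except cox4 rts1 at 16 h, which had 1. Libraries sharing a strain and time are described as technical replicates in the labels, so every p-value here measures only the spread between those libraries.

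Complex II takes part in both the TCA cycle and the respiratory chain: it oxidises succinate to fumarate in the mitochondrial matrix and passes the electrons to coenzyme Q in the inner membrane. Sdh1 is the catalytic flavoprotein, Sdh2 carries the iron-sulfur clusters, and Sdh3 and Sdh4 anchor the enzyme in the membrane and form the site where coenzyme Q binds. In yeast, Sdh3 is also a part of the TIM22 complex, which inserts carrier proteins into the inner membrane. Transcription of respiratory genes is repressed by glucose and activated by the HAP complex, whose Hap4 subunit is itself made when glucose runs out. In coq2 the electron acceptor of complex II is missing, and in cox4 the last enzyme of the chain is missing.

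On build R64 of the RefSeq annotation, SDH1 (YKL148C) lies at chrXI:169207-171129 on the minus strand, SDH2 (YLL041C) at chrXII:53131-53931 on the minus strand, SDH3 (YKL141W) at chrXI:179667-180263 on the plus strand and SDH4 (YDR178W) at chrIV:817950-818495 on the plus strand. Each is coded in 1 exon and overlaps no other annotated gene. In the promoter stretches that follow, 250 bases of RefSeq R64 sequence from 350 to 101 bases before the start codon are written from 5′ to 3′ on the gene's strand. They were shown because they hold matches to short motifs, so the motif counts given below depend in part on that choice. The capitals mark CCAAT, the core of the site of the HAP complex, and AGGGG, the core of the stress response element, each searched on both strands, so that CCAAT on the opposite strand reads ATTGG. The stretches are chrXI:171230-171479 (minus) for SDH1, chrXII:54032-54281 (minus) for SDH2, chrXI:179317-179566 (plus) for SDH3 and chrIV:817600-817849 (plus) for SDH4.
SDH1: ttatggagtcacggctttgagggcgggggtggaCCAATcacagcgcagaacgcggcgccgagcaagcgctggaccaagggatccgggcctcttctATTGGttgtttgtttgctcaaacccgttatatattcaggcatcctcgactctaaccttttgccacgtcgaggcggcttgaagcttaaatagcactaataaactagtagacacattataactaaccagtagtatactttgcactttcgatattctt
SDH2: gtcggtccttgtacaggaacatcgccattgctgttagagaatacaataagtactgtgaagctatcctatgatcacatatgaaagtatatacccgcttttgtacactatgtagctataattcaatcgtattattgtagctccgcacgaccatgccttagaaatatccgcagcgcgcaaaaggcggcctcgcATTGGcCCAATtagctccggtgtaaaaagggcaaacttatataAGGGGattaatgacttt
SDH3: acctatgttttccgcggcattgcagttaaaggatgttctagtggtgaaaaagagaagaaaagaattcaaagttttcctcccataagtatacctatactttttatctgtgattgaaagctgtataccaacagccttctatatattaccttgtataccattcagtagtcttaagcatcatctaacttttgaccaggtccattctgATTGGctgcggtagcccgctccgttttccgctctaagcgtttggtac
SDH4: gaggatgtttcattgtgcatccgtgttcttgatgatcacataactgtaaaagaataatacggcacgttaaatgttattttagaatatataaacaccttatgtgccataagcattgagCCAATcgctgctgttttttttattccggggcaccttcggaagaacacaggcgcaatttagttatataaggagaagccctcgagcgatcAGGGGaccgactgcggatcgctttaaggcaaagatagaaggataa

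All 4 stretches held CCAAT, against 37.7% of the 6001 windows of the same length and place taken from all genes. SDH1 held it from 317 to 313 bases before the start codon and, on the opposite strand, from 255 to 251. SDH2 also held 2 copies, at 160 to 156 on the opposite strand and at 154 to 150, separated by a single base; 8.5% of all windows held at least 2. SDH3 held 1 copy at 147 to 143 on the opposite strand, and SDH4 held 1 at 233 to 229. AGGGG was in SDH2 at 117 to 113 and in SDH4 at 145 to 141, against 20.1% of all windows. The coding sequence of VPS13, the gene upstream of SDH2, ends 279 bases before the SDH2 start codon, so the far end of the SDH2 stretch is coding sequence of VPS13. A match of 5 letters describes the sequence and is not evidence that a factor binds there.

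**Figure D1:**
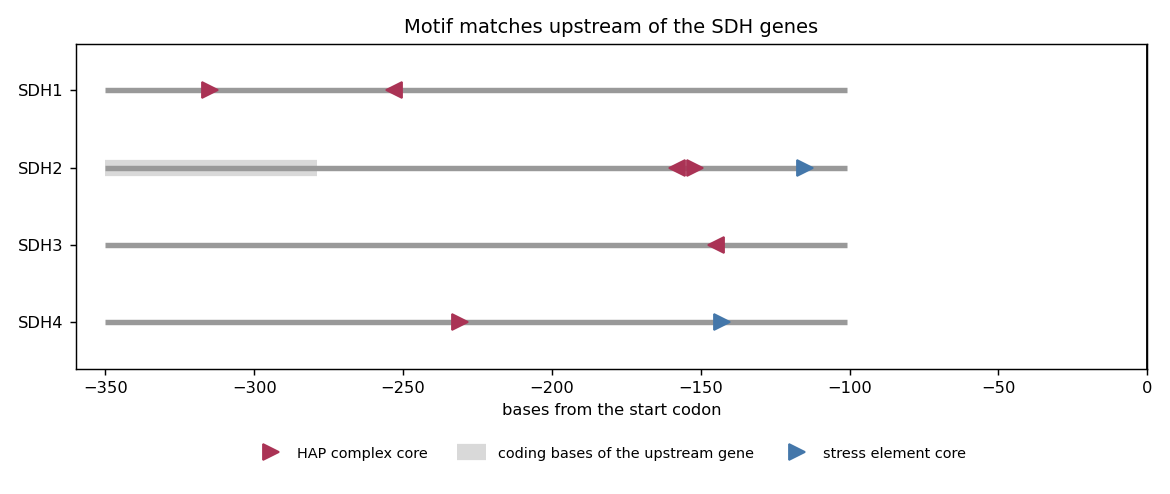
Motif matches upstream of the 4 SDH genes, plotted by distance in bases from the start codon (grey bars, the 250 bases shown; triangles point right for the gene's strand and left for the opposite strand). The HAP complex core is present upstream of all 4 genes and the stress element core upstream of SDH2 and SDH4, and the pale block marks coding bases of the upstream gene.

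The deposited values are TPM, the share of a library's transcripts corrected for gene length, so levels of different genes can be set side by side but the number of reads behind a value is unknown. Because TPM is a share, more transcript of a gene and less of all others cannot be told apart. Within a group the libraries agreed across genes with a Pearson's r of 0.985 to 0.998. Each deleted gene was lower in every library labelled as lacking it than in any other library, with COQ2 at most 2.95 TPM against at least 5.55, and COX4 at most 72.3 against at least 283. The COX4 maximum came from 1 of the 2 libraries of cox4 tco89 at 16 h, whose partner stood at 2.95 TPM, so results that rest on it are given with and without it. Unless another scale is named, differences are on the log2(TPM + 1) scale from 1 limma fit over all 71 libraries. A gene is said to have risen or fallen, or to be higher or lower past the threshold, at a Benjamini-Hochberg adjusted p under 0.05 over all genes and at least a 2-fold change. Rescaling the libraries by the median ratio of their genes moved the zero point of the 71 comparisons by -0.73 to 0.60 (log2), by over 0.1 in 49 of them, and where that changes a call on an SDH gene, the value on that scale is given beside it.

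In the wild type all 4 SDH transcripts rose steeply between log phase and 12 h and then changed by less than 2-fold. SDH1, the catalytic flavoprotein, stood at 42.7 and 40.7 TPM at 0 h, 502 and 591 at 12 h and 584 and 485 at 16 h. SDH2, the iron-sulfur subunit, stood at 93.0 and 92.7 TPM at 0 h, 982 and 1176 at 12 h and 1074 and 962 at 16 h. The libraries at 12 and 16 h overlapped for both genes, and all lay far above those at 0 h. Of the membrane anchors, SDH3 stood at 218 and 222 TPM at 0 h, 1433 and 1433 at 12 h and 1274 and 1127 at 16 h. SDH4 stood at 125 and 124 TPM at 0 h, 1662 and 1704 at 12 h and 1649.9 and 1453 at 16 h. The 12 h values were 12.8, 11.5, 6.49 and 13.4 times those at 0 h for SDH1 to SDH4, so the rise was smallest for SDH3, which had the highest level in log phase. As log2 differences these were 3.68 for SDH1, 3.52 for SDH2, 2.70 for SDH3 and 3.74 for SDH4 (SE 0.083 to 0.11; largest adjusted p 1.5e-29, limma). All 4 of 4 rose, against 17.7% of all genes that rose. The 16 h values differed from 0 h by 3.64 for SDH1, 3.44 for SDH2, 2.44 for SDH3 and 3.62 for SDH4, again 4 of 4 beside 17.7% of all genes. From 12 to 16 h none passed the threshold, beside 0.382% of all genes in either direction; the 95% intervals of the difference were -0.25 to 0.19 for SDH1, -0.29 to 0.13 for SDH2, -0.42 to -0.091 for SDH3 and -0.30 to 0.063 for SDH4.

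**Figure D2:**
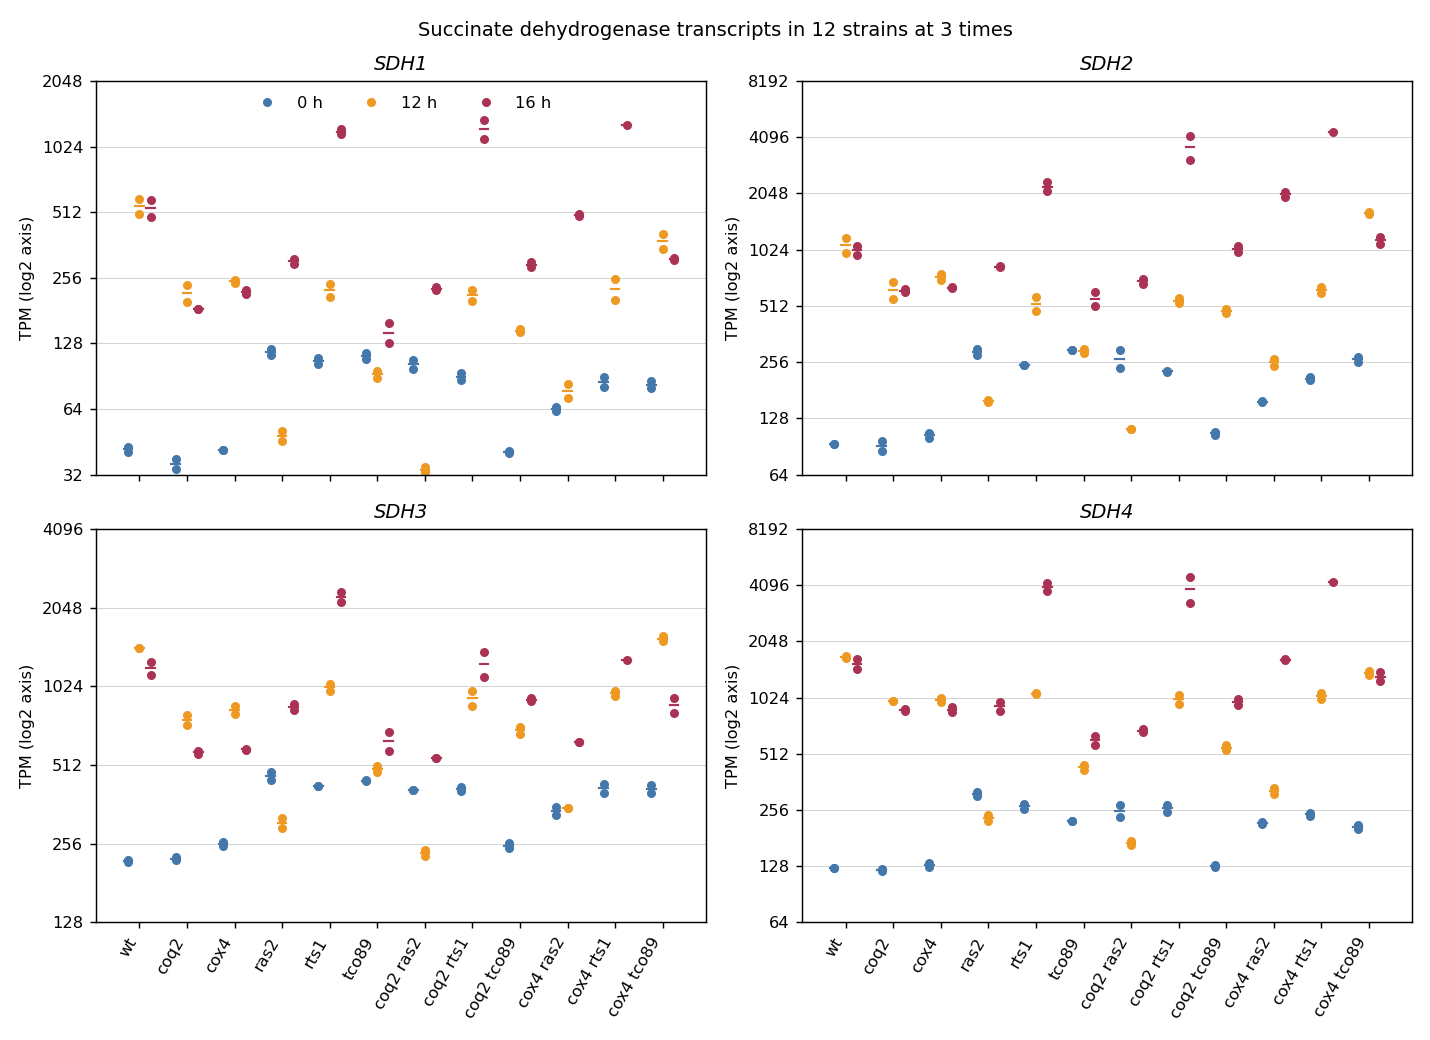
TPM of SDH1, SDH2, SDH3 and SDH4 on a log2 axis in each of the 12 strains; every point is 1 library, short lines are group means, and colours give the time (0, 12 and 16 h). The wild type is high at both 12 and 16 h, and ras2 and coq2 ras2 are low at 12 h. For SDH1, SDH2 and SDH4 the 16 h values of the strains without RTS1 are the highest of the series.

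Other genes of the pathway were compared in the wild type between 0 and 16 h, when 17.7% of all genes rose and 28.9% fell. Of the complex II assembly factors, 4 of 6 rose and 1 of 6 fell: SDH5, needed to attach the flavin to Sdh1, changed by 1.69, SDH6 and SDH7, which guard Sdh2 during assembly, by 2.79 and 1.23, SDH8, a chaperone of free Sdh1, by 1.74, and FLX1, a flavin carrier, by -1.26. The median of the list was 1.46, where the median of all genes was -0.24. Of the TCA cycle enzymes other than SDH, 5 of 11 rose and none fell (median 0.81), among them MDH1 (2.87), KGD1 (2.58), CIT1 (2.49) and FUM1 (2.42). All 9 of 9 complex III subunits rose (median 2.16), as did 7 of 7 nuclear subunits of cytochrome c oxidase (median 2.62) and 3 of 3 NADH dehydrogenases of the inner membrane (median 2.97). Of the regulators, 5 of 9 rose, led by HAP4 (4.05), ADR1 (3.60) and CAT8 (2.77). Among other makers, users and carriers of succinate and fumarate, 3 of 6 rose and 2 of 6 fell; SFC1, the succinate-fumarate carrier, changed by 7.83, ICL1, the isocitrate lyase of the glyoxylate cycle, by 5.36 and DIC1, the dicarboxylate carrier, by -2.63. With median-ratio scaling 4 of 6 assembly factors, 6 of 11 TCA enzymes and 6 of 9 regulators rose, 0 of 6 assembly factors fell, and of the succinate and fumarate genes 3 of 6 rose and 1 of 6 fell. On that scale 22.6% of all genes rose and 22.2% fell.

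In the electron transport chain mutants no SDH gene differed from the wild type past the threshold at 0 h, while SDH1 was lower at 12 h and SDH1 and SDH3 were lower at 16 h. In coq2, SDH1 stood at 34.0 and 37.9 TPM at 0 h, 237 and 197 at 12 h and 185 and 185 at 16 h. SDH2 stood at 97.0 and 85.7 TPM at 0 h, 684 and 559 at 12 h and 607 and 631 at 16 h. Both libraries of coq2 lay below both wild-type libraries at 12 and 16 h for SDH1 and for SDH2. For the anchors in coq2, SDH3 stood at 222 and 228 TPM at 0 h, 728 and 794 at 12 h and 564 and 581 at 16 h. SDH4 stood at 123 and 121 TPM at 0 h, 984 and 975 at 12 h and 887 and 864 at 16 h. At 0 h none of the 4 genes differed from the wild type past the threshold, beside 0.277% of all genes in either direction, and the largest difference was that of SDH1 at -0.21 (95% interval -0.43 to 0.0097). At 12 h SDH1 alone was lower past the threshold, 1 of 4 beside 4.37% of all genes, with differences of -1.33 for SDH1, -0.80 for SDH2, -0.91 for SDH3 and -0.78 for SDH4 (SE 0.083 to 0.11; adjusted p 3.6e-13 for SDH1, limma). At 16 h SDH1 and SDH3 were lower, 2 of 4 beside 12.3% of all genes, with differences of -1.52 for SDH1, -0.71 for SDH2, -1.06 for SDH3 and -0.82 for SDH4 (SE 0.083 to 0.11; largest adjusted p of the 4 1.7e-07).

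In cox4 the levels were close to those in coq2. SDH1 stood at 41.6 and 41.5 TPM at 0 h, 243 and 251 at 12 h and 216 and 224 at 16 h. SDH2 stood at 101 and 107 TPM at 0 h, 761 and 702 at 12 h and 641 and 642 at 16 h. As in coq2, both libraries lay below the wild type at 12 and 16 h for these genes. In cox4 the anchor SDH3 stood at 259.9 and 251 TPM at 0 h, 804 and 857 at 12 h and 584 and 592 at 16 h. SDH4 stood at 133 and 126 TPM at 0 h, 973 and 1014 at 12 h and 913 and 854 at 16 h. None of the 4 differed from the wild type past the threshold at 0 h, beside 0.832% of all genes. At 12 h SDH1 was lower, 1 of 4 beside 2.43% of all genes, with differences of -1.14 for SDH1, -0.56 for SDH2, -0.79 for SDH3 and -0.76 for SDH4. At 16 h SDH1 and SDH3 were lower, 2 of 4 beside 9.52% of all genes, with differences of -1.27 for SDH1, -0.66 for SDH2, -1.03 for SDH3 and -0.81 for SDH4 (SE 0.083 to 0.11; largest adjusted p of the 4 8.4e-07, limma). Between coq2 and cox4 at 16 h no SDH gene passed the threshold, beside 0.364% of all genes; the 95% interval was -0.47 to -0.029 for SDH1 and -0.20 to 0.13 for SDH3.

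These lower levels depend in part on how the libraries are scaled. On the median-ratio scale the 16 h differences became -1.08 for SDH1, -0.28 for SDH2, -0.63 for SDH3 and -0.38 for SDH4 in coq2, where SDH1 alone passed, and -0.94 for SDH1, -0.33 for SDH2, -0.70 for SDH3 and -0.48 for SDH4 in cox4, where none passed; all 8 kept their direction. The median gene lay at -0.39 in coq2 and -0.31 in cox4 on the deposited scale. The same rescaling changed the share of all genes called lower at 16 h from 12.3% to 3.17% in coq2 and from 9.52% to 3.38% in cox4, and the share called higher from 1.35% to 5.41% and from 1.99% to 5.36%. Without the first listed wild-type library at 16 h, SDH3 stood at -0.97 in coq2 and -0.94 in cox4, which left SDH1 as the 1 gene past the threshold in each. At 12 h SDH1 stood at -1.01 in coq2 and -0.99 in cox4 on that scale, the second short of the threshold. CUP1-1, a metallothionein gene, took 17.9 and 19.4% of the 2 coq2 libraries and 19.2 and 20.8% of the 2 cox4 libraries at 16 h, against 5.47 and 5.97% in the wild type. Its part in the lower SDH values was not tested beyond leaving out the 10 genes with the highest mean TPM, CUP1-1 among them. After that step SDH1 in coq2 at 16 h stood at -1.22 and SDH3 at -0.76, and in cox4 at 16 h the count past the threshold went from 2 to 0.

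Other genes of the pathway at 16 h are read against the 12.3% of all genes that were lower in coq2 and the 9.52% in cox4. Of the TCA enzymes, 9 of 11 were lower in coq2 (median -1.5), led by ACO1 (-2.76), IDH2 (-2.12), CIT1 (-2.11) and IDH1 (-1.72), and 8 of 11 in cox4 (median -1.28). These counts on the median-ratio scale were 6 of 11 and 5 of 11, beside 3.17% and 3.38% of all genes. None of the 6 assembly factors passed the threshold in either mutant, with medians of -0.39 and -0.36 that lay close to the median of all genes. Of the complex III subunits 2 of 9 were lower in coq2 and 2 of 9 in cox4, and of the cytochrome c oxidase subunits 3 of 7 and 3 of 7; on the median-ratio scale 1 of 9 and 0 of 9 of complex III and 0 of 7 and 0 of 7 of the oxidase were. ICL1 and SFC1 showed the greatest differences among the succinate and fumarate genes, at -4.64 and -4.94 in coq2 and -4.51 and -4.64 in cox4. HAP4 stood at 179 ± 10.8 TPM in coq2 and 256 ± 21.3 in cox4, against 398 ± 14.7 in the wild type.

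The SDH transcripts of ras2 were higher than those of the wild type in log phase, far lower at 12 h and within 2-fold of them at 16 h. In ras2, SDH1 stood at 121 and 113 TPM at 0 h, 45.7 and 50.7 at 12 h and 313 and 298 at 16 h. SDH2 stood at 300.1 and 280.1 TPM at 0 h, 156 and 160.3 at 12 h and 835 and 827 at 16 h. At 12 h both genes were below their own 0 h level, while in the wild type they had risen. The anchor SDH3 in ras2 stood at 483 and 449.8 TPM at 0 h, 293 and 320.0 at 12 h and 877 and 834 at 16 h. SDH4 stood at 319 and 304 TPM at 0 h, 224 and 242 at 12 h and 974 and 869 at 16 h. At 0 h 4 of 4 were higher than in the wild type, beside 3.59% of all genes, by 1.46 for SDH1, 1.63 for SDH2, 1.08 for SDH3 and 1.31 for SDH4 (SE 0.083 to 0.11; largest adjusted p 1.2e-14, limma). At 12 h 4 of 4 were lower, beside 11.9% of all genes, with differences of -3.47 for SDH1, -2.76 for SDH2, -2.22 for SDH3 and -2.85 for SDH4 (SE 0.083 to 0.11; largest adjusted p 4.2e-25). In TPM + 1 the wild-type level at 12 h was thus 11.1 times that of ras2 for SDH1 and 4.67 times for SDH3. At 16 h none passed the threshold, beside 15.1% of all genes in either direction, with differences of -0.80 for SDH1, -0.29 for SDH2, -0.49 for SDH3 and -0.75 for SDH4. Within ras2, SDH1 fell from 0 to 12 h (-1.26), 1 of 4 beside 23.6% of all genes that fell, a call that is lost on the median-ratio scale (-0.88). From 12 to 16 h 4 of 4 rose, beside 3.94% of all genes, by 2.64 for SDH1, 2.39 for SDH2, 1.48 for SDH3 and 1.98 for SDH4.

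At 12 h in ras2, when 11.9% of all genes were lower than in the wild type, other respiratory genes were lower as well. All 9 of 9 complex III subunits (median -2.49) and 7 of 7 cytochrome c oxidase subunits (median -2.38) were lower, as were 6 of 11 TCA enzymes (median -1.5), where the median of all genes was -0.14. HAP4, the activating subunit of the HAP complex, stood at 27.4 ± 0.843 TPM against 457 ± 17.5 in the wild type (-4.01). Only SDH6 of the 6 assembly factors was lower (-1.02), and on the median-ratio scale 0 of 6 were, beside 8.17% of all genes. The paralogues of the anchors went the other way, with SHH3 at 938 ± 66.9 TPM against 294 ± 17.1 (1.67) and SHH4 at 307 ± 10.6 against 76.9 ± 0.515 (1.98), 2 of 3 paralogues higher beside 5.01% of all genes.

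In tco89 3 of the 4 transcripts were also higher than in the wild type past the threshold at 0 h, and all 4 were lower at 12 h. SDH1 stood at 109 and 115 TPM at 0 h, 88.5 and 95.9 at 12 h and 159 and 128 at 16 h. SDH2 stood at 298 and 298 TPM at 0 h, 299 and 288 at 12 h and 610.1 and 508 at 16 h. Neither reached the wild-type range at 12 or 16 h. Of the anchors in tco89, SDH3 stood at 445 and 447 TPM at 0 h, 482 and 509 at 12 h and 683 and 579 at 16 h. SDH4 stood at 223 and 224 TPM at 0 h, 420.1 and 446 at 12 h and 636 and 573 at 16 h. At 0 h 3 of 4 were higher than in the wild type, beside 0.538% of all genes, by 1.40 for SDH1, 1.67 for SDH2, 1.02 for SDH3 and 0.84 for SDH4, SDH4 falling short of 2-fold, and on the median-ratio scale SDH3 did too (0.97). At 12 h 4 of 4 were lower, beside 4.89% of all genes, with differences of -2.55 for SDH1, -1.87 for SDH2, -1.53 for SDH3 and -1.96 for SDH4 (SE 0.083 to 0.11; largest adjusted p 4.2e-19, limma). At 16 h SDH1 and SDH4 were lower, 2 of 4 beside 4.41% of all genes, with differences of -1.89 for SDH1, -0.87 for SDH2, -0.93 for SDH3 and -1.36 for SDH4. On the median-ratio scale all 4 were lower (-1.03 for SDH2 and -1.09 for SDH3), beside 6.09% of all genes. SDH3 was lower as well without the first listed tco89 library (-1.05) or the second listed wild-type library at 16 h (-1.02), which took the count to 3. Within tco89 no SDH gene passed the threshold from 0 to 12 h, beside 36.2% of all genes in either direction, with differences of -0.28 for SDH1, -0.022 for SDH2, 0.15 for SDH3 and 0.95 for SDH4; on the median-ratio scale SDH4 did (1.11). From 0 to 16 h SDH4 rose (1.43), 1 of 4 beside 16.8% of all genes, and SDH3 changed by 0.49, SDH2 by 0.90 and SDH1 by 0.35; SDH2 passed as well on the median-ratio scale (1.07) and without the second listed 16 h library (1.03).

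As in ras2, all 9 of 9 complex III and 7 of 7 cytochrome c oxidase subunits were lower than in the wild type at 12 h in tco89, with medians of -1.86 and -1.79 where the median of all genes was 0.18 and 4.89% of all genes were lower. Of the TCA enzymes 6 of 11 were lower and 1 was higher, beside 7.08% of all genes that were higher, and HAP4 stood at 50.6 ± 8.67 TPM. No assembly factor of complex II passed the threshold (median -0.12).

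In rts1 the SDH transcripts rose at both steps, and 3 of the 4 were higher than in the wild type past the threshold at 16 h. Its SDH1 stood at 103 and 109.6 TPM at 0 h, 209 and 239.5 at 12 h and 1229.9 and 1173 at 16 h. SDH2 stood at 247 and 246 TPM at 0 h, 569 and 478 at 12 h and 2359 and 2101 at 16 h. Each gene climbed at both steps, and its 16 h libraries lay above every wild-type library. In rts1 the anchor SDH3 stood at 424 and 425 TPM at 0 h, 1043 and 985 at 12 h and 2349 and 2148 at 16 h. SDH4 stood at 276 and 259.9 TPM at 0 h, 1079 and 1068 at 12 h and 4184 and 3808 at 16 h. At 0 h 3 of 4 were higher than in the wild type, beside 1.4% of all genes, by 1.33 for SDH1, 1.40 for SDH2, 0.94 for SDH3 and 1.1 for SDH4, and on the median-ratio scale SDH3 passed as well (1.1). At 12 h SDH1 and SDH2 were lower, 2 of 4 beside 14.2% of all genes, with differences of -1.28 and -1.04, while SDH3 differed by -0.50 and SDH4 by -0.65; on the median-ratio scale none of these passed (-0.91 for SDH1 and -0.67 for SDH2). Without the second listed library of the wild type or of rts1 at 12 h, SDH2 stood at -0.91 or -0.92 and 1 gene was left. At 16 h 3 of 4 were higher, beside 6.56% of all genes, by 1.17 for SDH1, 1.13 for SDH2, 0.91 for SDH3 and 1.37 for SDH4 (SE 0.083 to 0.11; largest adjusted p 4.6e-12, limma), with SDH3 short of 2-fold. Within rts1 4 of 4 rose from 0 to 12 h, beside 11.5% of all genes, by 1.07 for SDH1, 1.08 for SDH2, 1.26 for SDH3 and 2.00 for SDH4. Without the second listed 12 h library SDH1 stood at 0.97, and without the first SDH2 stood at 0.95, and 3 of 4 passed each time. From 12 to 16 h 4 of 4 rose again, beside 14.5% of all genes, by 2.42 for SDH1, 2.09 for SDH2, 1.15 for SDH3 and 1.89 for SDH4. SDH3 did not pass in this step on the median-ratio scale (0.70), beside 4.92% of all genes that rose.

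At 16 h in rts1, when 6.56% of all genes were higher than in the wild type, the lists held 1 of 9 complex III subunits (RIP1, 1.09), 1 of 7 cytochrome c oxidase subunits (COX6, 1.08), 2 of 11 TCA enzymes (IDH2, 1.19, and ACO1, 1.11) and 0 of 6 assembly factors that were higher. HAP4 was higher (1.09), at 846 ± 30.7 TPM. With median-ratio scaling 0 of 9 complex III subunits, 0 of 7 oxidase subunits, 2 of 11 TCA enzymes and 0 of 9 regulators were higher, beside 4.91% of all genes. The anchor paralogues SHH3 (1.25) and SHH4 (1.32) were higher as well.

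The double mutants were compared first with the electron transport chain mutant that each suppressor was placed in. With the number of clones not given, loss of the second gene and differences between clones cannot be told apart in these comparisons. With RAS2 lost, the 12 h level was lower in both backgrounds. In coq2 ras2, SDH1 stood at 97.3 and 108 TPM at 0 h, 32.8 and 34.5 at 12 h and 231 and 224 at 16 h. SDH2 stood at 237 and 296 TPM at 0 h, 113 and 112 at 12 h and 712 and 674 at 16 h. The 12 h values of coq2 ras2 were the lowest of all groups at that time for each of the 4 genes. In the same strain SDH3 stood at 411 and 410.4 TPM at 0 h, 242 and 229 at 12 h and 544 and 543 at 16 h. SDH4 stood at 236 and 272 TPM at 0 h, 176 and 166 at 12 h and 695 and 666 at 16 h. Against coq2, 3 of 4 were higher at 0 h, beside 3.49% of all genes, by 1.49 for SDH1, 1.53 for SDH2, 0.87 for SDH3 and 1.05 for SDH4, and 2 without the second listed coq2 ras2 library, SDH4 standing at 0.94. At 12 h 4 of 4 were lower, beside 7.96% of all genes, with differences of -2.65 for SDH1, -2.45 for SDH2, -1.69 for SDH3 and -2.51 for SDH4 (SE 0.083 to 0.11; largest adjusted p 2.2e-21, limma). At 16 h none passed, beside 24.9% of all genes in either direction. The differences ran from -0.36 for SDH4 to 0.30 for SDH1, and the 95% interval for SDH2 was -0.050 to 0.38. On the median-ratio scale SDH1 and SDH2 changed sign, to -0.058 and -0.20.

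In cox4 ras2, SDH1 stood at 62.7 and 65.6 TPM at 0 h, 71.6 and 82.9 at 12 h and 492 and 504 at 16 h. SDH2 stood at 156 and 158 TPM at 0 h, 245 and 266 at 12 h and 1961 and 2088 at 16 h. At 16 h its SDH1 and SDH4 libraries overlapped those of the wild type, its SDH2 libraries lay above them and its SDH3 libraries below. In coq2 ras2 the libraries of each SDH gene lay below those of the wild type at 16 h. How many of all genes were separated in this way was not counted for any pair of groups, so such statements only describe the libraries. The level of a double mutant was not tested against that of the wild type. In cox4 ras2 SDH3 stood at 331 and 355 TPM at 0 h, 351 and 351 at 12 h and 627 and 627 at 16 h. SDH4 stood at 219.6 and 216 TPM at 0 h, 311 and 335 at 12 h and 1639 and 1621 at 16 h. Against cox4, none passed at 0 h, beside 10% of all genes in either direction, with differences of 0.61 for SDH1, 0.59 for SDH2, 0.42 for SDH3 and 0.75 for SDH4. At 12 h 4 of 4 were lower, beside 7.32% of all genes, with differences of -1.67 for SDH1, -1.51 for SDH2, -1.24 for SDH3 and -1.62 for SDH4. At 16 h SDH1 and SDH2 were higher, 2 of 4 beside 10.8% of all genes, by 1.18 and 1.66, while SDH4 differed by 0.88 and SDH3 by 0.092 (95% interval -0.074 to 0.26). Leaving out the 10 genes with the highest mean TPM kept SDH2 past the threshold (1.41) but not SDH1 (0.93). Set against each other at 16 h, coq2 ras2 was lower than cox4 ras2 for 3 of 4 genes, beside 4.21% of all genes, with differences of -1.12 for SDH1, -1.55 for SDH2, -0.21 for SDH3 and -1.26 for SDH4. Against ras2 at 16 h, SDH2 was higher in cox4 ras2 (1.28), 1 of 4 beside 6.78% of all genes, with SDH3 at -0.45; SDH4 passed as well on the median-ratio scale (1.04). In coq2 ras2 none passed against ras2, beside 2.12% of all genes in either direction, with differences of -0.42 for SDH1, -0.26 for SDH2, -0.65 for SDH3 and -0.44 for SDH4.

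With RTS1 lost, SDH1, SDH2 and SDH4 at 16 h were higher than in the single electron transport chain mutant in both backgrounds, and SDH3 was on the deposited scale. In coq2 rts1, SDH1 stood at 86.5 and 93.4 TPM at 0 h, 200.4 and 224 at 12 h and 1361 and 1109.9 at 16 h. SDH2 stood at 231 and 227 TPM at 0 h, 566 and 528 at 12 h and 4158 and 3110.0 at 16 h. The 2 libraries at 16 h differed by 1.34-fold for SDH2, the widest spread of SDH2 within any group, and both still lay above all wild-type libraries. In coq2 rts1, SDH3 stood at 421 and 408 TPM at 0 h, 987 and 859 at 12 h and 1391 and 1112 at 16 h. SDH4 stood at 273 and 251 TPM at 0 h, 1059 and 945 at 12 h and 4506 and 3271 at 16 h. Against coq2, 3 of 4 were higher at 0 h, beside 2.2% of all genes, by 1.30 for SDH1, 1.32 for SDH2, 0.88 for SDH3 and 1.09 for SDH4, and on the median-ratio scale SDH3 passed as well (1.07). None passed at 12 h, beside 15% of all genes in either direction, with 95% intervals from -0.25 to 0.19 for SDH1 and from 0.11 to 0.44 for SDH3. At 16 h 4 of 4 were higher, beside 10.8% of all genes, by 2.73 for SDH1, 2.54 for SDH2, 1.12 for SDH3 and 2.13 for SDH4 (SE 0.083 to 0.11; largest adjusted p 3.1e-15, limma). As ratios these were 6.62, 5.80, 2.17 and 4.38, SDH3 again the smallest. SDH3 did not pass without the first listed coq2 rts1 library (0.96) or on the median-ratio scale (0.91).

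In cox4 rts1, SDH1 stood at 80.3 and 89.3 TPM at 0 h, 202 and 254 at 12 h and 1285 at 16 h (1 library). SDH2 stood at 205 and 212 TPM at 0 h, 602 and 648 at 12 h and 4374 at 16 h (1 library). The single library at 16 h held the highest SDH2 value of the series. Its SDH3 stood at 432 and 401 TPM at 0 h, 944 and 984 at 12 h and 1286 at 16 h (1 library). SDH4 stood at 246 and 238 TPM at 0 h, 1007 and 1077 at 12 h and 4242 at 16 h (1 library). Against cox4 at 0 h, 1 of 4 was higher, beside 1.94% of all genes, with differences of 1.01 for SDH1, 1.00 for SDH2, 0.70 for SDH3 and 0.90 for SDH4. This count turns on values at the 2-fold limit. It is 3 on the median-ratio scale (1.18 for SDH2 and 1.08 for SDH4), beside 2.76% of all genes. It is 2 without the second listed cox4 or the first listed cox4 rts1 library, and 0 without the second listed cox4 rts1 library. None passed at 12 h, beside 17% of all genes in either direction, with differences of -0.12 for SDH1, -0.23 for SDH2, 0.22 for SDH3 and 0.068 for SDH4. At 16 h 4 of 4 were higher, beside 11.3% of all genes, by 2.54 for SDH1, 2.77 for SDH2, 1.13 for SDH3 and 2.26 for SDH4 (SE 0.10 to 0.13; largest adjusted p 1.5e-12, limma, with the lone library assumed to vary like the other groups). SDH3 did not pass on the median-ratio scale (0.97). Against rts1 at 16 h no SDH gene passed in coq2 rts1, beside 13.4% of all genes in either direction, nor in cox4 rts1, again with 1 library, beside 15.2%. In those comparisons SDH2 differed by 0.69 and 0.97 and SDH3 by -0.85 and -0.80, in opposite directions. Without the first listed coq2 rts1 library SDH3 was lower than in rts1 (-1.01), and without the first listed rts1 library SDH2 was higher in cox4 rts1 (1.06). SDH2 passed on the median-ratio scale, at 1.03 and 1.26.

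Among the other genes of the pathway at 16 h, ACO1, the mitochondrial aconitase, was higher by 2.68 in coq2 rts1 and 2.51 in cox4 rts1 against the single mutants, RIP1, the iron-sulfur protein of complex III, by 2.15 and 1.99, and COX6 by 2.45 and 1.77. Where 10.8% and 11.3% of all genes were higher, 4 of 11 and 5 of 11 TCA enzymes were, of the complex III subunits 4 of 9 and 2 of 9, and of the cytochrome c oxidase subunits 5 of 7 and 5 of 7. On the median-ratio scale the TCA counts were 4 of 11 and 5 of 11, the complex III counts 2 of 9 and 2 of 9 and the oxidase counts 3 of 7 and 3 of 7, beside 6.66% and 8.06% of all genes. None of the 6 assembly factors passed in either comparison, with medians of -0.21 and -0.029.

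With TCO89 lost, the double mutants differed from each other for 4 of 4 genes at 12 h and for none past the threshold at 16 h. In coq2 tco89, SDH1 stood at 40.4 and 40.9 TPM at 0 h, 144 and 149 at 12 h and 302 and 286 at 16 h. SDH2 stood at 104 and 108 TPM at 0 h, 471 and 491 at 12 h and 1071 and 995 at 16 h. At 0 h these were at the coq2 level and not at the higher tco89 level. SDH3 stood at 246 and 258 TPM at 0 h, 676 and 718 at 12 h and 923 and 896 at 16 h in this strain. SDH4 stood at 126 and 129 TPM at 0 h, 568 and 535 at 12 h and 1008 and 939 at 16 h. Against coq2 none of the 4 passed at 0 h, 12 h or 16 h, beside 1.02%, 24.2% and 19.6% of all genes in either direction. At 12 h the differences were -0.56 for SDH1, -0.36 for SDH2, -0.13 for SDH3 and -0.83 for SDH4. SDH1 and SDH4 were lower past the threshold at 12 h on the median-ratio scale (-1.02 and -1.29), beside 7.54% of all genes. Against tco89, SDH1 and SDH2 were lower at 0 h, 2 of 4 beside 0.434% of all genes, with differences of -1.44 and -1.48. None passed at 12 h, beside 0.902% of all genes in either direction, with differences of 0.66 for SDH1, 0.71 for SDH2, 0.49 for SDH3 and 0.35 for SDH4. At 16 h SDH1 was higher (1.04), 1 of 4 beside 0.85% of all genes. The count was 2 without the first listed tco89 library and 0 without the second. It was 2 on the median-ratio scale, where SDH2 stood at 1.02 and 1.23% of all genes were higher.

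In cox4 tco89, SDH1 stood at 80.0 and 85.5 TPM at 0 h, 346 and 408 at 12 h and 309 and 316 at 16 h. SDH2 stood at 257 and 273 TPM at 0 h, 1587 and 1628 at 12 h and 1195 and 1102 at 16 h. Both SDH2 libraries at 12 h lay above the 16 h libraries of this strain and above the wild-type libraries at 12 h. From 12 to 16 h none of the 4 passed the threshold, beside 8.86% of all genes that fell, with differences from -0.85 to -0.065. This change was not recomputed on the median-ratio scale or without the library that held COX4 at 72.3 TPM. No test against the wild type was made. Its SDH3 stood at 401 and 429 TPM at 0 h, 1524 and 1596 at 12 h and 809 and 927 at 16 h. SDH4 stood at 202 and 212 TPM at 0 h, 1344 and 1427 at 12 h and 1254 and 1397 at 16 h. Against cox4, SDH2 was higher at 0 h (1.34) and at 12 h (1.14), 1 of 4 each time beside 0.78% and 2.71% of all genes, and without the first listed cox4 tco89 library SDH1 was higher as well at 0 h (1.02). None passed at 16 h, beside 12.4% of all genes in either direction, with or without the library that held COX4 at 72.3 TPM; on the median-ratio scale SDH2 did (1.1). Against tco89, 4 of 4 were higher at 12 h, beside 2.2% of all genes, by 2.02 for SDH1, 2.45 for SDH2, 1.65 for SDH3 and 1.68 for SDH4 (SE 0.083 to 0.11; largest adjusted p 3.0e-19, limma), and 3 of 4 at 16 h, beside 3.71% of all genes, by 1.13 for SDH1, 1.04 for SDH2, 0.46 for SDH3 and 1.13 for SDH4. Without the library that held COX4 at 72.3 TPM, 2 of 4 were higher at 16 h, SDH2 standing at 0.98, and without the second listed tco89 library 1 was, SDH4 at 1.06. On the median-ratio scale all 4 were, SDH3 standing at 1.22, beside 12% of all genes that were higher on that scale. Between the double mutants at 12 h, 4 of 4 were lower in coq2 tco89 than in cox4 tco89, beside 1.7% of all genes, with differences of -1.35 for SDH1, -1.74 for SDH2, -1.16 for SDH3 and -1.33 for SDH4. At 0 h SDH1 and SDH2 were lower, 2 of 4 beside 0.434% of all genes, with differences of -1.01 for SDH1, -1.31 for SDH2, -0.72 for SDH3 and -0.69 for SDH4. SDH1 there was at the limit and did not pass on the median-ratio scale (-1.0), without the first listed coq2 tco89 library (-1.0) or without the second listed cox4 tco89 library (-0.96). At 16 h none passed, beside 17.9% of all genes in either direction, with differences of -0.088 for SDH1, -0.15 for SDH2, 0.071 for SDH3 and -0.44 for SDH4. On the median-ratio scale SDH4 was lower at 16 h (-1.07), and SDH3 changed sign both there (-0.56) and without the library that held COX4 at 72.3 TPM (-0.028).

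**Figure D3:**
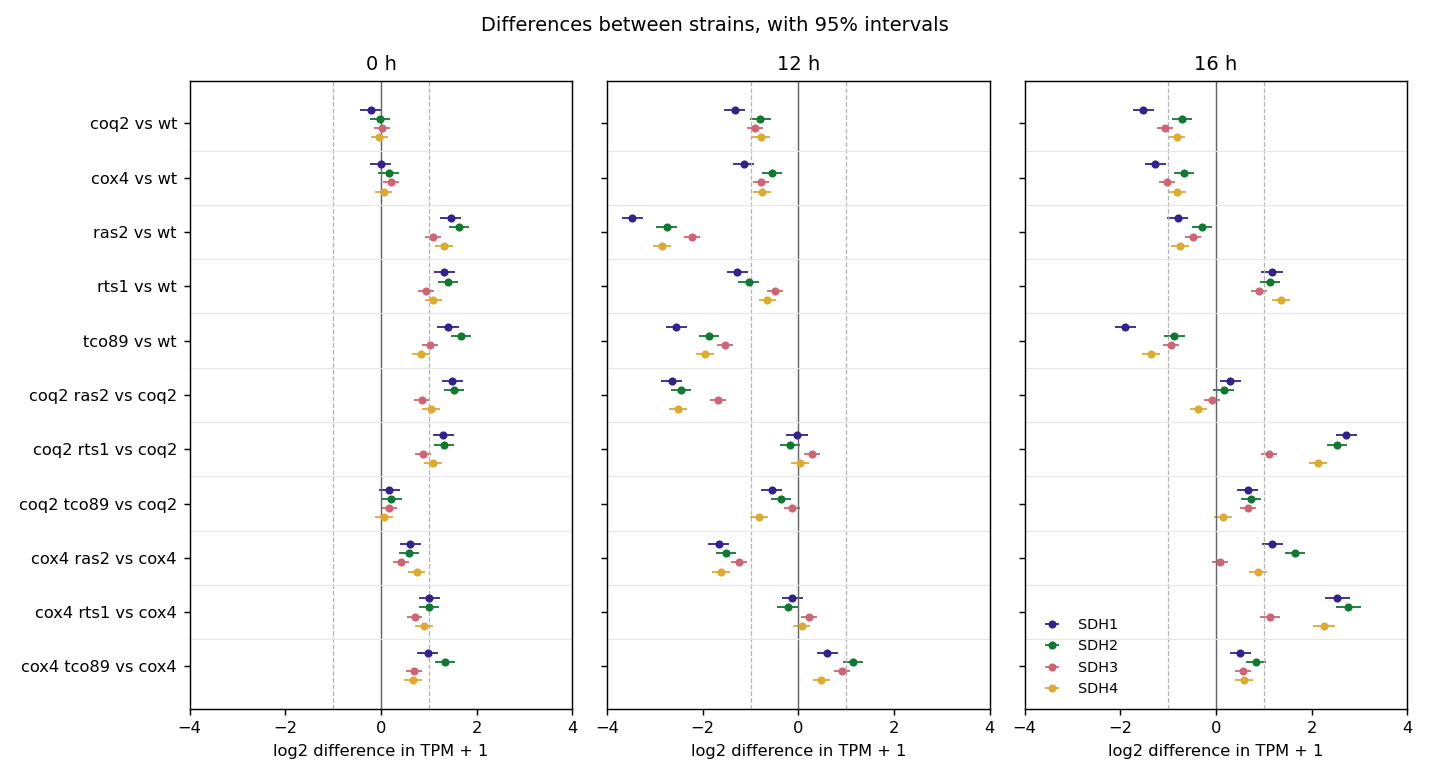
Differences of SDH1 to SDH4 between each single mutant and the wild type and between each double mutant and its electron transport chain mutant, in log2(TPM + 1), at 0, 12 and 16 h; points are limma estimates, bars 95% intervals and dashed lines 2-fold. At 12 h the ras2 and tco89 points lie left of the 2-fold line, and at 16 h the points of coq2 rts1 and cox4 rts1 lie right of it.

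Whether the time course of an SDH gene differed from that of the wild type was tested with interaction terms, the 0 to 16 h change in a mutant minus that in the wild type. In coq2 the difference of changes was -1.31 for SDH1, -0.69 for SDH2, -1.09 for SDH3 and -0.79 for SDH4, with SDH1 and SDH3 lower, 2 of 4 beside 12.2% of all genes. In cox4 it was -1.27 for SDH1, -0.82 for SDH2, -1.24 for SDH3 and -0.86 for SDH4, also 2 of 4 beside 10.3%. Neither pair passed on the median-ratio scale (-0.92 and -0.70 in coq2, -1.0 and -0.98 in cox4). In ras2, by contrast, 4 of 4 were lower, beside 9.57% of all genes, with differences of -2.26 for SDH1, -1.92 for SDH2, -1.56 for SDH3 and -2.06 for SDH4. In tco89 4 of 4 were lower, beside 5.29%, with differences of -3.29 for SDH1, -2.54 for SDH2, -1.95 for SDH3 and -2.19 for SDH4 (largest adjusted p 7.0e-18, limma). The 0 to 16 h change in rts1 differed from the wild type past the threshold for none of the 4, beside 13.1% of all genes in either direction. The differences of changes ran from -0.27 for SDH2 to 0.27 for SDH4. Their 95% intervals were -0.47 to 0.16 for SDH1 and -0.27 to 0.20 for SDH3. The median of all genes was 0.27 in this comparison, and 0.022 on the median-ratio scale.

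A second set of interaction terms compared the effect of losing COQ2 or COX4 in a suppressor strain with its effect in the wild type. In the tco89 background the difference of effects was positive for every SDH gene at 12 and 16 h and negative for every one at 0 h. At 0 h it was -1.23 for SDH1, -1.45 for SDH2, -0.85 for SDH3 and -0.77 for SDH4 for loss of COQ2, with SDH1 and SDH2 lower, 2 of 4 beside 0.364% of all genes. For loss of COX4 at 0 h it was -0.42 for SDH1, -0.33 for SDH2, -0.32 for SDH3 and -0.16 for SDH4, with none past the threshold, beside 1.11% of all genes in either direction. For COQ2 the difference of effects at 12 h was 1.99 for SDH1, 1.51 for SDH2, 1.40 for SDH3 and 1.13 for SDH4, 4 of 4 higher beside 6.71% of all genes. SDH4 did not pass on the median-ratio scale (0.81), beside 2.64% of all genes. At 16 h it was 2.56 for SDH1, 1.60 for SDH2, 1.60 for SDH3 and 1.51 for SDH4, 4 of 4 beside 9.73%. For COX4 it was 3.16 for SDH1, 3.00 for SDH2, 2.44 for SDH3 and 2.44 for SDH4 at 12 h, 4 of 4 beside 3.19%, and 2.40 for SDH1, 1.70 for SDH2, 1.49 for SDH3 and 1.94 for SDH4 at 16 h, 4 of 4 beside 4.13%; without the library that held COX4 at 72.3 TPM the 16 h count stayed at 4. In the ras2 background at 16 h, loss of COX4 gave a difference of effects of 1.97 for SDH1, 1.95 for SDH2, 0.58 for SDH3 and 1.63 for SDH4, 3 of 4 beside 14%, SDH3 excepted, and loss of COQ2 gave 1.1 for SDH1, 0.45 for SDH2, 0.41 for SDH3 and 0.39 for SDH4, where SDH1 alone passed, 1 of 4 beside 10.1%, and did not pass on the median-ratio scale (0.72) or without the first listed wild-type library (0.97). In the rts1 background at 16 h, SDH1 and SDH2 were higher for COQ2 (1.55 and 1.41), 2 of 4 beside 4.58%, and for COX4 (1.37 and 1.64), 2 of 4 beside 4.98%, while SDH3 stood at 0.21 and 0.22. The COX4 term rests on the 1 library of cox4 rts1 at 16 h, assumed to vary like the other groups. These comparisons share the wild-type and single-mutant libraries, so they are not independent of each other.

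The 4 transcripts did not keep a fixed proportion, and of the ratios taken those with SDH3 varied most over the libraries at 16 h. A ratio of TPM values within a library does not depend on how libraries are scaled. SDH2/SDH3 was 0.426 and 0.418 in the 2 wild-type libraries at 0 h, 0.686 and 0.821 at 12 h and 0.843 and 0.854 at 16 h, so SDH3 was the more abundant of the pair throughout. At 16 h in coq2 rts1 the ratio was 2.99 and 2.80, and in the library of cox4 rts1 it was 3.40. In these strains SDH2 outnumbered SDH3. In cox4 ras2 at 16 h the ratio was 3.13 and 3.33. In rts1 alone it was 1.00 and 0.978, in ras2 alone 0.952 and 0.992 and in cox4 alone 1.1 and 1.09, all below the lowest value in the 3 double mutants, so no single mutant shown here had the ratio of the combination. SDH4/SDH3 behaved alike, at 1.30 and 1.29 in the wild type at 16 h, 3.24 and 2.94 in coq2 rts1, 3.30 in cox4 rts1 and 2.62 and 2.58 in cox4 ras2. In the other doubles SDH2/SDH3 at 16 h was 1.31 and 1.24 in coq2 ras2, 1.16 and 1.11 in coq2 tco89 and 1.48 and 1.19 in cox4 tco89. Ratios between the other subunits moved as well. Mean SDH4/SDH2 at 16 h was 1.52 in the wild type, 1.79 in rts1, 1.07 in coq2 rts1 and 0.81 in cox4 ras2. Over the libraries at 16 h SDH2/SDH1 ran from 1.79 to 4.15. No test was made of these ratios.

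**Figure D4:**
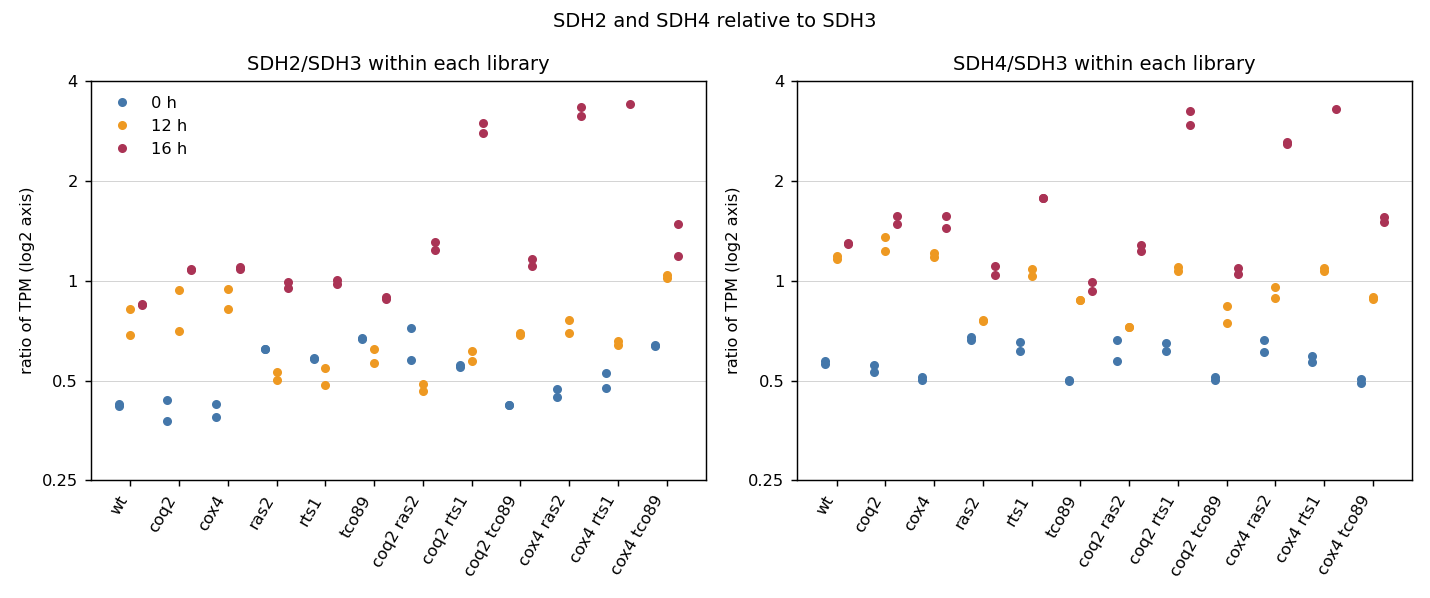
Ratio of SDH2 to SDH3 (left) and of SDH4 to SDH3 (right) in TPM within each library, on a log2 axis, by strain and time; every point is 1 library. At 16 h the libraries of coq2 rts1, cox4 rts1 and cox4 ras2 lie above those of all other strains in both panels.

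Ordered by mean level (± SD, n = 2, or the single value of cox4 rts1 at 16 h), the 36 groups of strain and time ran as follows. For SDH1 the highest means were those of cox4 rts1 at 16 h (1285 TPM), coq2 rts1 at 16 h (1236 ± 178 TPM) and rts1 at 16 h (1201 ± 40.6 TPM), and the lowest those of coq2 tco89 at 0 h (40.7 ± 0.406 TPM), coq2 at 0 h (35.9 ± 2.75 TPM) and coq2 ras2 at 12 h (33.7 ± 1.24 TPM). For SDH2 the highest means were those of cox4 rts1 at 16 h (4374 TPM), coq2 rts1 at 16 h (3634 ± 741 TPM) and rts1 at 16 h (2229.8 ± 182 TPM), and the lowest those of cox4 at 0 h (104 ± 4.26 TPM), wt at 0 h (92.8 ± 0.216 TPM) and coq2 at 0 h (91.4 ± 7.96 TPM). The top of both orders was held by strains without RTS1 at 16 h. For SDH3 the highest means were those of rts1 at 16 h (2249 ± 142 TPM), cox4 tco89 at 12 h (1559.9 ± 51.1 TPM) and wt at 12 h (1433 ± 0.609 TPM), and the lowest those of coq2 ras2 at 12 h (235 ± 9.22 TPM), coq2 at 0 h (225 ± 4.21 TPM) and wt at 0 h (220.0 ± 2.48 TPM). For SDH4 the highest means were those of cox4 rts1 at 16 h (4242 TPM), rts1 at 16 h (3996 ± 266 TPM) and coq2 rts1 at 16 h (3888 ± 873 TPM), and the lowest those of coq2 tco89 at 0 h (128 ± 2.32 TPM), wt at 0 h (125 ± 0.375 TPM) and coq2 at 0 h (122 ± 1.58 TPM). From the lowest to the highest library the range was 41.5-fold for SDH1, 51.0-fold for SDH2, 10.8-fold for SDH3 and 37.3-fold for SDH4. Many neighbours in these orders cannot be ranked: of the 35 pairs of adjacent groups, the libraries overlapped in 21 for SDH1, 20 for SDH2, 17 for SDH3 and 17 for SDH4. Across the 36 group means on the log2(TPM + 1) scale, the pairs of members correlated at Pearson's r = 0.906 (SDH2 with SDH3) to 0.980 (SDH1 with SDH2); the groups share strains, times and controls, so this is a description.

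The genes whose levels most resembled the mean of the 4 members over the 36 groups were sought among 4233 genes with a standard name and a mean of at least 10 TPM. By Pearson's r of log2(TPM + 1), the 8 closest were KGD1 (0.960), COX8 (0.955), QCR10 (0.95), QCR9 (0.945), RIP1 (0.943), HAP4 (0.933), NDI1 (0.932) and ACH1 (0.929). KGD1 is a subunit of alpha-ketoglutarate dehydrogenase, the TCA step before succinate is formed, COX8 a subunit of cytochrome c oxidase, QCR9, QCR10 and RIP1 subunits of complex III, NDI1 the internal NADH dehydrogenase and ACH1 a mitochondrial CoA transferase of acetate metabolism. HAP4, the glucose-regulated subunit of the HAP complex, was the only gene among them from the list of regulators. On the median-ratio scale 6 of the 8 were again among the closest 8, and HAP4, at rank 10, and ACH1, at rank 11, were not. HAP4 stood at 23.2 ± 3.04 TPM in the wild type at 0 h and 457 ± 17.5 at 12 h. It was lowest at 12 h in coq2 ras2, at 20.9 ± 3.07 TPM, the group in which all 4 SDH genes were at their lowest for that time. In coq2 rts1 at 16 h it stood at 478 ± 8.42 TPM and in cox4 rts1 at 527, below the 846 ± 30.7 of rts1, while mean SDH2 stood at 3634 ± 741 and 4374 in the double mutants and 2229.8 ± 182 in rts1.

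The paralogues of complex II subunits followed another course. SHH3 and SHH4 resemble SDH3 and SDH4, and YJL045W (SDH9) resembles SDH1, with 77.0% identity over 93.3% of the SDH1 coding sequence, so reads of this pair could in part be divided between them by the counting. YJL045W was low, with group means of 4.50 to 29.2 TPM. In the wild type SHH3 went from 22.3 ± 1.04 TPM at 0 h to 294 ± 17.1 at 12 h and 245 ± 7.62 at 16 h. In the suppressor strains the courses parted. In coq2 rts1 SHH3 stood at 1002 ± 202 TPM at 12 h and 270.1 ± 20.8 at 16 h, while SDH3 stood at 923 ± 89.9 and 1252 ± 197. In cox4 rts1 SHH3 stood at 1084 ± 80.1 and 279. In ras2 at 12 h SHH3 exceeded SDH3, at 938 ± 66.9 against 307 ± 19.0 TPM. In tco89 SHH3 stood at 466 ± 89.3 at 12 h, near SDH3 at 495 ± 19.2. Against coq2 at 12 h, all 3 of 3 paralogues were higher in coq2 rts1, beside 7.01% of all genes, SHH4 by 2.30, SHH3 by 2.18 and YJL045W by 1.1, where no SDH gene passed the threshold. The level of SHH4 was 76.9 ± 0.515 TPM in the wild type at 12 h and 341 ± 54.2 in coq2 rts1.

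**Figure D5:**
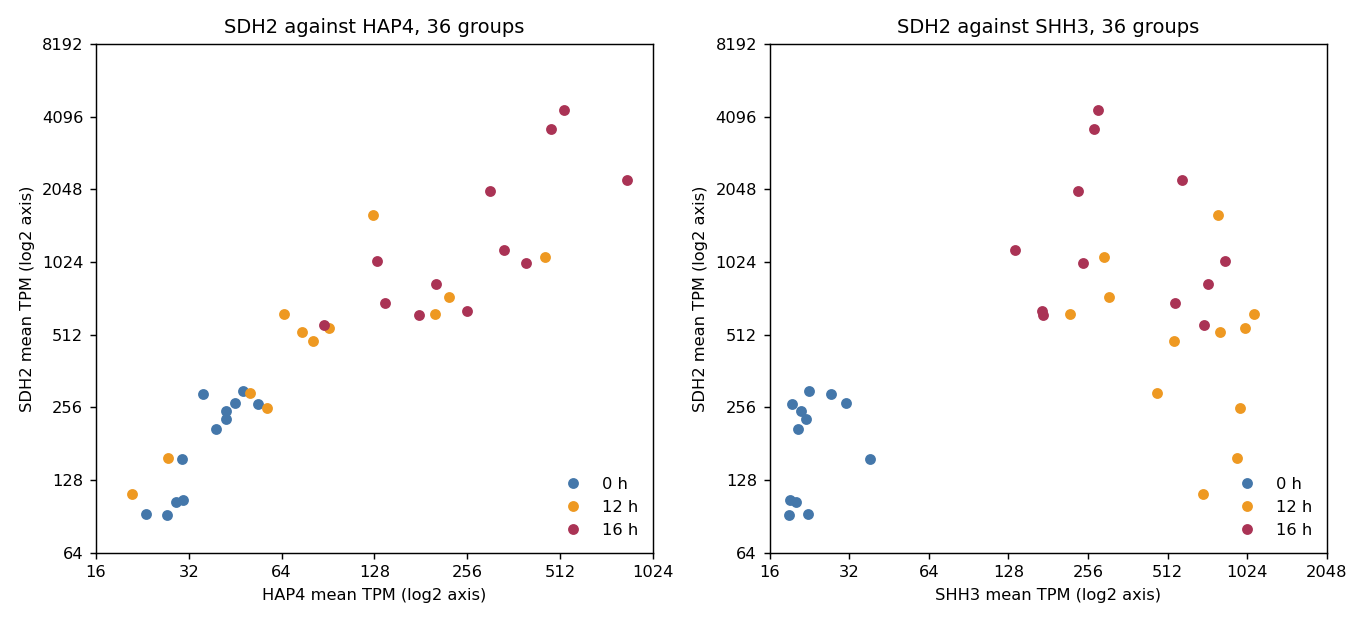
Group mean TPM of SDH2 against that of HAP4 (left) and SHH3 (right) on log2 axes; each point is 1 of the 36 groups of strain and time, coloured by time. Groups with low SDH2 mostly have low HAP4, whereas at 12 h mean SHH3 is higher in every strain without RAS2, RTS1 or TCO89 than in the wild type, coq2 and cox4, whether SDH2 is low, as in ras2, or high, as in cox4 tco89.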

How the data were processed

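Per the labels' protocols, RNA was made into strand-specific poly(A) libraries. bcl2fastq 2.20.0.422, Salmon 0.9.1 and sacCer3 appear in the submitters' processing notes, with no role given. The deposited values are TPM that the authors scaled to a common sum per library, with a floor of 0.1 TPM. TPM keeps no read counts, so depth is unknown and the only measure of precision is how far libraries of a group differ. Column names gave strain and time but no replicate number, so libraries were used unnumbered.

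A gene was kept if 2 or more libraries held it at 1 TPM or more, which left 5766 of 5803. One limma fit (version 3.58.1, R 4.3.3) on log2(TPM + 1), with a mean for each of the 36 groups, 35 residual degrees of freedom and an intensity trend, gave 128 comparisons, of which 71 are reported. Fold changes on this scale understate changes of low values. P-values were adjusted by the Benjamini-Hochberg method within each comparison over all genes kept. The fit was tested on simulated data. Alternatives were other pseudocounts, no filter, no trend, median-ratio scaling, leaving out the 10 genes of highest mean TPM, the groups compared alone, no fold limit and each library left out in turn.

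Named genes were the 4 members, the deleted genes, the 8 genes most like the members, and up to 4 members past the threshold per pathway list with the largest change; further list members were named after their values were seen. Members, lists and comparisons were chosen with earlier results of these data known. Promoter sequences and coordinates are from RefSeq R64, where 5779 identifiers matched, and near copies were searched with blastn 2.17.0. Figures were drawn with matplotlib 3.10.9.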

Additional observations from a re-analysis of the deposited data

Results flagged for a closer look

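The results below were marked because the same contrast gave different effects in different strains, by an interaction term past the threshold of the limma fit. The change from 0 to 16 h minus that in the wild type was as follows. In coq2 it was -1.31 for SDH1 and -1.09 for SDH3. In cox4 it was -1.27 for SDH1 and -1.24 for SDH3. In ras2 it was -2.26 for SDH1, -1.92 for SDH2, -1.56 for SDH3 and -2.06 for SDH4. In tco89 it was -3.29 for SDH1, -2.54 for SDH2, -1.95 for SDH3 and -2.19 for SDH4. The effect of an electron transport chain deletion in a suppressor strain minus its effect in the wild type was as follows. For coq2 in tco89 at 12 h it was 1.99 for SDH1, 1.51 for SDH2, 1.40 for SDH3 and 1.13 for SDH4. For coq2 in tco89 at 16 h it was 2.56 for SDH1, 1.60 for SDH2, 1.60 for SDH3 and 1.51 for SDH4. For cox4 in tco89 at 12 h it was 3.16 for SDH1, 3.00 for SDH2, 2.44 for SDH3 and 2.44 for SDH4. For cox4 in tco89 at 16 h it was 2.40 for SDH1, 1.70 for SDH2, 1.49 for SDH3 and 1.94 for SDH4. For coq2 in ras2 at 16 h it was 1.1 for SDH1. For cox4 in ras2 at 16 h it was 1.97 for SDH1, 1.95 for SDH2 and 1.63 for SDH4. For coq2 in rts1 at 16 h it was 1.55 for SDH1 and 1.41 for SDH2. For cox4 in rts1 at 16 h it was 1.37 for SDH1 and 1.64 for SDH2. For coq2 in tco89 at 0 h it was -1.23 for SDH1 and -1.45 for SDH2. The value for cox4 in rts1 at 16 h rests on 1 library of cox4 rts1. No group had more than 2 libraries, so single libraries could not be tested for standing apart from their group.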

How the results depend on the processing

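Counts of SDH genes past the threshold in 71 comparisons and 284 differences of single SDH genes were recomputed under each alternative, and no difference that passed the threshold changed direction. Leaving out the filter on low values, the intensity trend, or all groups but those compared moved no count. With median-ratio scaling counts moved as follows. For tco89 at 12 vs 0 h, cox4 tco89 vs cox4 at 16 h, coq2 rts1 vs rts1 at 16 h, cox4 rts1 vs rts1 at 16 h and coq2 tco89 vs cox4 tco89 at 16 h the count went from 0 to 1. For coq2 tco89 vs coq2 at 12 h the count went from 0 to 2. For cox4 vs wt at 12 h, ras2 at 12 vs 0 h and effect of coq2 in ras2 minus that in wt at 16 h the count went from 1 to 0. For tco89 at 16 vs 0 h, coq2 tco89 vs tco89 at 16 h and cox4 ras2 vs ras2 at 16 h the count went from 1 to 2. For cox4 rts1 vs cox4 at 0 h the count went from 1 to 3. For cox4 vs wt at 16 h, rts1 vs wt at 12 h, change 0 to 16 h in coq2 minus that in wt and change 0 to 16 h in cox4 minus that in wt the count went from 2 to 0. For coq2 vs wt at 16 h and coq2 tco89 vs cox4 tco89 at 0 h the count went from 2 to 1. For tco89 vs wt at 16 h the count went from 2 to 4. For tco89 vs wt at 0 h the count went from 3 to 2. For rts1 vs wt at 0 h, coq2 rts1 vs coq2 at 0 h and cox4 tco89 vs tco89 at 16 h the count went from 3 to 4. For rts1 at 16 vs 12 h, coq2 rts1 vs coq2 at 16 h, cox4 rts1 vs cox4 at 16 h and effect of coq2 in tco89 minus that in wt at 12 h the count went from 4 to 3. Rescaling without the 10 genes of highest mean TPM moved these. For tco89 at 12 vs 0 h, coq2 tco89 vs coq2 at 12 h and cox4 rts1 vs rts1 at 16 h the count went from 0 to 1. For cox4 vs wt at 12 h and effect of coq2 in ras2 minus that in wt at 16 h the count went from 1 to 0. For tco89 at 16 vs 0 h and cox4 rts1 vs cox4 at 0 h the count went from 1 to 2. For cox4 vs wt at 16 h and change 0 to 16 h in cox4 minus that in wt the count went from 2 to 0. For coq2 vs wt at 16 h, rts1 vs wt at 12 h, cox4 ras2 vs cox4 at 16 h and change 0 to 16 h in coq2 minus that in wt the count went from 2 to 1. For rts1 at 16 vs 12 h, coq2 rts1 vs coq2 at 16 h, cox4 rts1 vs cox4 at 16 h and effect of coq2 in tco89 minus that in wt at 12 h the count went from 4 to 3. A pseudocount of 0.1 gave 2 and one of 5 gave 0 in place of 1 for cox4 rts1 vs cox4, 0 h, and a pseudocount of 5 gave 1 in place of 2 for coq2 tco89 vs cox4 tco89, 0 h. With the adjusted p alone and no fold limit more genes were counted. For wt at 16 vs 12 h, coq2 rts1 vs coq2 at 12 h, cox4 rts1 vs cox4 at 12 h and coq2 tco89 vs cox4 tco89 at 16 h the count went from 0 to 1. For tco89 at 12 vs 0 h, coq2 ras2 vs coq2 at 16 h, coq2 rts1 vs rts1 at 16 h and cox4 rts1 vs rts1 at 16 h the count went from 0 to 2. For coq2 tco89 vs coq2 at 12 h, coq2 tco89 vs coq2 at 16 h and coq2 ras2 vs ras2 at 16 h the count went from 0 to 3. For ras2 vs wt at 16 h, cox4 ras2 vs cox4 at 0 h, cox4 tco89 vs cox4 at 16 h and coq2 tco89 vs tco89 at 12 h the count went from 0 to 4. For cox4 ras2 vs ras2 at 16 h the count went from 1 to 3. For coq2 vs wt at 12 h, cox4 vs wt at 12 h, ras2 at 12 vs 0 h, tco89 at 16 vs 0 h, cox4 rts1 vs cox4 at 0 h, cox4 tco89 vs cox4 at 0 h, cox4 tco89 vs cox4 at 12 h, coq2 tco89 vs tco89 at 16 h and effect of coq2 in ras2 minus that in wt at 16 h the count went from 1 to 4. For cox4 ras2 vs cox4 at 16 h, effect of coq2 in rts1 minus that in wt at 16 h and effect of cox4 in rts1 minus that in wt at 16 h the count went from 2 to 3. For coq2 vs wt at 16 h, cox4 vs wt at 16 h, tco89 vs wt at 16 h, rts1 vs wt at 12 h, coq2 tco89 vs tco89 at 0 h, change 0 to 16 h in coq2 minus that in wt, change 0 to 16 h in cox4 minus that in wt, coq2 tco89 vs cox4 tco89 at 0 h and effect of coq2 in tco89 minus that in wt at 0 h the count went from 2 to 4. For tco89 vs wt at 0 h, rts1 vs wt at 0 h, rts1 vs wt at 16 h, coq2 ras2 vs coq2 at 0 h, coq2 rts1 vs coq2 at 0 h, cox4 tco89 vs tco89 at 16 h, effect of cox4 in ras2 minus that in wt at 16 h and coq2 ras2 vs cox4 ras2 at 16 h the count went from 3 to 4. Leaving out 1 library at a time gave ranges of 2 to 3 for coq2 ras2 vs coq2, 0 h, 3 to 4 for coq2 rts1 vs coq2, 16 h, 0 to 1 for coq2 rts1 vs rts1, 16 h, 1 to 2 for coq2 tco89 vs cox4 tco89, 0 h, 0 to 2 for coq2 tco89 vs tco89, 16 h, 1 to 2 for coq2 vs wt, 16 h, 0 to 2 for cox4 rts1 vs cox4, 0 h, 0 to 1 for cox4 rts1 vs rts1, 16 h, 1 to 2 for cox4 tco89 vs cox4, 0 h, 1 to 3 for cox4 tco89 vs tco89, 16 h, 1 to 2 for cox4 vs wt, 16 h, 0 to 1 for effect of coq2 in ras2 minus that in wt, 16 h, 1 to 2 for rts1 vs wt, 12 h, 3 to 4 for rts1, 12 vs 0 h, 2 to 3 for tco89 vs wt, 16 h and 1 to 2 for tco89, 16 vs 0 h. The differences that changed sign were all under 0.6 in size and none passed the threshold. With median-ratio scaling these were 0.017 for SDH2 in coq2 vs wt, 0 h (-0.026 as reported), 0.012 for SDH4 in coq2 vs wt, 0 h (-0.031 as reported), 0.058 for SDH1 in cox4 vs wt, 0 h (-0.0060 as reported), 0.14 for SDH2 in tco89, 12 vs 0 h (-0.022 as reported), -0.058 for SDH1 in coq2 ras2 vs coq2, 16 h (0.30 as reported), -0.20 for SDH2 in coq2 ras2 vs coq2, 16 h (0.16 as reported), 0.081 for SDH1 in coq2 rts1 vs coq2, 12 h (-0.029 as reported), -0.32 for SDH4 in coq2 tco89 vs coq2, 16 h (0.15 as reported), -0.0057 for SDH3 in cox4 ras2 vs cox4, 16 h (0.092 as reported), 0.26 for SDH1 in cox4 rts1 vs cox4, 12 h (-0.12 as reported), 0.16 for SDH2 in cox4 rts1 vs cox4, 12 h (-0.23 as reported), 0.28 for SDH4 in coq2 rts1 vs rts1, 16 h (-0.056 as reported), 0.055 for SDH2 in coq2 vs cox4, 16 h (-0.052 as reported), 0.069 for SDH3 in coq2 vs cox4, 16 h (-0.038 as reported), 0.095 for SDH4 in coq2 vs cox4, 16 h (-0.012 as reported) and -0.56 for SDH3 in coq2 tco89 vs cox4 tco89, 16 h (0.071 as reported). Without the 10 genes of highest mean TPM they were 0.21 for SDH2 in tco89, 12 vs 0 h (-0.022 as reported), -0.10 for SDH2 in coq2 ras2 vs coq2, 16 h (0.16 as reported), -0.11 for SDH4 in coq2 rts1 vs coq2, 12 h (0.030 as reported), -0.099 for SDH4 in coq2 tco89 vs coq2, 16 h (0.15 as reported), -0.15 for SDH3 in cox4 ras2 vs cox4, 16 h (0.092 as reported), -0.056 for SDH4 in cox4 rts1 vs cox4, 12 h (0.068 as reported), 0.033 for SDH4 in coq2 rts1 vs rts1, 16 h (-0.056 as reported), -0.0043 for SDH3 in effect of coq2 in rts1 minus that in wt, 16 h (0.21 as reported) and 0.0017 for SDH4 in coq2 vs cox4, 16 h (-0.012 as reported). Leaving out 1 library at a time, they ranged over -0.039 to 0.027 for SDH1 in cox4 vs wt, 0 h, -0.17 to 0.10 for SDH1 in wt, 16 vs 12 h, -0.21 to 0.049 for SDH2 in wt, 16 vs 12 h, -0.13 to 0.051 for SDH3 in change 0 to 16 h in rts1 minus that in wt, -0.11 to 0.062 for SDH2 in coq2 vs wt, 0 h, -0.16 to 0.10 for SDH1 in coq2 rts1 vs coq2, 12 h, -0.061 to 0.036 for SDH4 in coq2 vs cox4, 16 h, -0.29 to 0.17 for SDH4 in coq2 rts1 vs rts1, 16 h, -0.11 to 0.18 for SDH1 in coq2 rts1 vs rts1, 16 h, -0.050 to 0.0063 for SDH2 in tco89, 12 vs 0 h, -0.052 to 0.11 for SDH4 in coq2 rts1 vs coq2, 12 h, -0.29 to 0.041 for SDH1 in cox4 rts1 vs cox4, 12 h and -0.028 to 0.17 for SDH3 in coq2 tco89 vs cox4 tco89, 16 h. In 49 of the 71 comparisons the median-ratio scale moved the share of higher among all called genes by over 10 percentage points. No paired analysis was possible because the deposited column names carry no replicate number, so the replicate block was not run. The cause of these movements was not tested beyond the scale itself. Depth is unknown for TPM, so counting error could not be given, and cox4 rts1 at 16 h rests on 1 library.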
